A study of Mus musculus with 7 samples.

Results

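The 8 genes described here are the adult haemoglobin genes Hba-a1, Hba-a2, Hbb-bs and Hbb-bt, the red cell haem synthesis gene Alas2, and the platelet genes Pf4, Ppbp and Itga2b. They were taken by name from a table of 55357 genes, and each name matched 1 gene. RNA-seq was done on live CD45+ CD8+ T cells sorted from subcutaneous MCA205 tumours 14 days after implantation, where MCA205 is a mouse fibrosarcoma line. 4 libraries came from tumours grown in ENT1KO mice (Slc29a1-/-, which lack the nucleoside transporter ENT1; replicates 11, 12, 14 and 15) and 3 from tumours grown in WT C57Bl/6 mice (replicates 1, 2 and 3). The labels place the knockout in the recipient mice and name no change in the tumour cells, which were the same line in both groups. They do not give ages, or say that each library is a separate animal, so p-values measure only the spread between these libraries. At least 30000 cells went into each condition.

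Haemoglobin is a tetramer of alpha and beta chains, each holding 1 haem group, and its messages are made in red cell precursors and carried on into reticulocytes, the youngest circulating red cells. Platelets are fragments of megakaryocytes that carry granules of the CXC chemokines encoded by Pf4 and Ppbp, and a fibrinogen receptor whose alpha subunit is encoded by Itga2b. T cells are not known as a major source of any of these products, and red cells and platelets lack the CD45 used in the sort. Where their messages in these libraries came from was not tested.

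Levels are given in TPM, a unit that corrects for gene length and sums to 1000000 over the genes of a library. A log2 difference is the ENT1KO mean minus the WT mean of log2(TPM + 1), in which the changes of weakly expressed genes are shrunk. It was tested with limma-trend over all genes that reached 1 TPM in 3 libraries or more. A gene is said to have risen or fallen where its Benjamini-Hochberg adjusted p was under 0.05. Slc29a1, the targeted gene, had 13.6, 13.2, 17.6 and 15 TPM in ENT1KO replicates 11, 12, 14 and 15, against 51, 58.9 and 49.7 TPM in WT replicates 1, 2 and 3, so it was lower in each library labelled ENT1KO. Depth was nearly equal, with 18624318 to 19635168 gene-assigned reads in ENT1KO libraries and 18632462 to 19660792 in WT libraries, a depth inferred from the normalized counts. The genotypes stood far apart throughout the transcriptome: 50.6% of the 13798 tested genes passed the threshold, 23.1% lower and 27.5% higher in ENT1KO. Markers of CD8 T cells (Cd8a, Cd3e, Trac and others) were present in every library, with a summed level of 9141 to 11240 TPM in ENT1KO and 2861 to 6915 TPM in WT, and 14 of 14 rose. WT replicate 2 had the lowest level of that list, and it was the highest library for 7 of the 8 genes described here.

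6 of the 8 genes fell in ENT1KO libraries: all 4 globin genes, Alas2 and Pf4. Ppbp was below the filter on low values and Itga2b did not pass the test. Of the 7 genes that could be tested, 6 were called lower and 0 higher, beside 23.1% of all tested genes called lower. The 6 calls are not independent, since the 4 globins and Alas2 moved together. Every pair of them had a Pearson's r of 0.983 or more over the 7 libraries on log2(TPM + 1). With genotype means taken out it was 0.943 or more. The TPM ranges of the groups did not overlap, with ENT1KO below WT, for 7 of the 8 genes, beside 24.9% of tested genes, and 30.3% of tested genes were apart with ENT1KO above WT. The median log2 difference of the 7 was -2.91, against 0.15 over all tested genes, of which 3.99% had a difference of -2.5 or lower. Each of the 7 tested genes would have been kept by the filter through its WT values alone, and 5 of them through ENT1KO values as well. In bulk libraries, fewer cells of a type and less RNA per cell cannot be told apart.

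**Figure D1:**
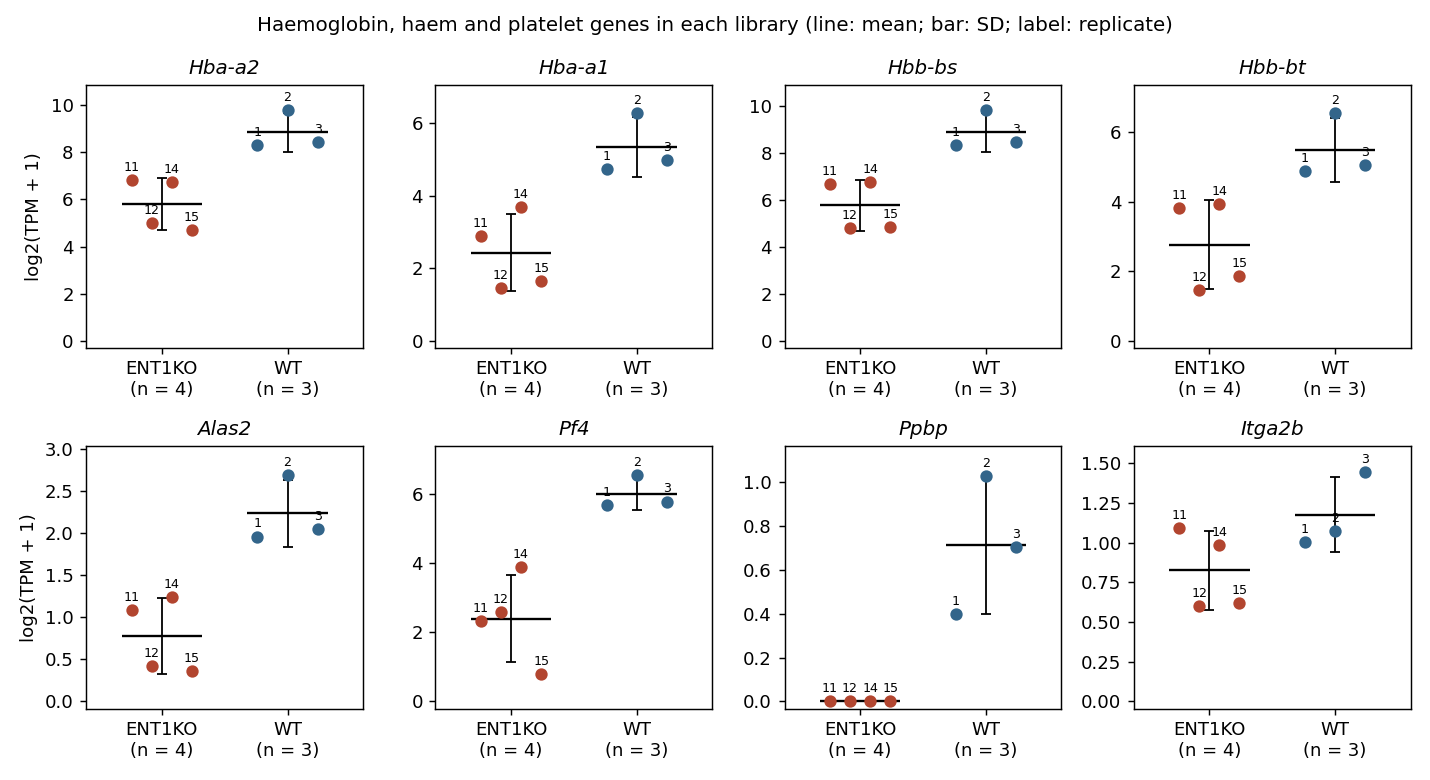
Levels of the 8 genes in each library, as log2(TPM + 1), with ENT1KO (n = 4) left and WT (n = 3) right. Points are libraries with their replicate numbers, horizontal lines are means and bars are SDs. The groups are apart for all but Itga2b, and Ppbp lies at 0 in the ENT1KO libraries. ENT1KO replicates 11 and 14 sit above 12 and 15 for the 4 globins, Alas2 and Itga2b.

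The alpha globin genes Hba-a1 (GRCm39 chr11:32233511-32234465) and Hba-a2 (chr11:32246489-32247298) encode the alpha chain and lie in 1 cluster. The beta globin genes Hbb-bs (chr7:103475741-103477303) and Hbb-bt (chr7:103461731-103463203) encode the adult beta chain of C57BL/6 mice. The copies of each pair are so alike that many reads fit both. In the GENCODE M21 transcripts (GRCm38), the 429 coding bases of Hba-a1 and Hba-a2 differ at 1 position, C381T, and the 444 coding bases of Hbb-bs and Hbb-bt differ at 1 position, C417T, with the Hba-a1 and Hbb-bs base first and positions counted from the A of the start codon. The 51 bases around each difference follow, 5′ to 3′ (GRCm38) with the differing base in capitals, because within the coding sequence only a read across it can tell the copies apart.
Hba-a1 (chr11:32284318-32284368, plus strand): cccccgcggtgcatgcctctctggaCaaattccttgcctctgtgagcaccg
Hba-a2 (chr11:32297135-32297185, plus strand): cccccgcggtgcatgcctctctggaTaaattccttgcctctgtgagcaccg
Hbb-bs (chr7:103826667-103826717, minus strand): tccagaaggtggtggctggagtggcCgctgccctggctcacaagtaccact
Hbb-bt (chr7:103812658-103812708, minus strand): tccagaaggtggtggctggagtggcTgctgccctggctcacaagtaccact
Of the 75-base windows of the whole transcript, 62.2% of those in Hba-a1 also occur in Hba-a2 and 81.0% of those in Hba-a2 also occur in Hba-a1. The same share was 64.3% for Hbb-bs and 56.6% for Hbb-bt. The sources used here give neither the read length nor the handling of reads that match both copies, so the level of any single copy is uncertain.

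Hba-a2 had 112, 30.7, 104 and 25.1 TPM in ENT1KO replicates 11, 12, 14 and 15, against 319, 891 and 343 TPM in WT replicates 1, 2 and 3. Hbb-bs had 99.9, 26.7, 107 and 27.6 TPM in the same ENT1KO libraries, against 321, 899.7 and 350.2 TPM in the WT libraries. For both genes every ENT1KO library lay below every WT library, replicates 11 and 14 were the higher of the knockouts, and WT replicate 2 stood above the other two. Hba-a2 averaged 67.9 ± 46.4 TPM in ENT1KO (SD, n = 4) and 518 ± 323 TPM in WT (SD, n = 3), a log2 difference of -3.04 ± 0.63 (SE, limma adjusted p = 0.00629). The log2 difference of Hbb-bs was -3.11 ± 0.62 (SE, limma adjusted p = 0.00551), and its WT mean was 8.03 times its ENT1KO mean. Ordered by TPM among all 55357 genes, Hbb-bs stood at place 150 in the library where it was highest, WT replicate 2, and at place 5007 where it was lowest.

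The other copy of each pair had a lower TPM in every library and moved the same way. Hba-a1 had 6.44, 1.76, 12 and 2.16 TPM in ENT1KO replicates 11, 12, 14 and 15, against 25.7, 77.2 and 30.8 TPM in WT replicates 1, 2 and 3. Hbb-bt had 13.0, 1.77, 14.1 and 2.62 TPM in the ENT1KO libraries, against 28.7, 92.9 and 32 TPM in the WT libraries. Neither gene overlapped between groups. The log2 difference was -2.91 ± 0.61 for Hba-a1 (SE, limma adjusted p = 0.00663) and -2.73 ± 0.71 for Hbb-bt (SE, limma adjusted p = 0.0155). The call of Hbb-bt rests on WT replicate 2: without that library its difference was -2.21 (limma adjusted p = 0.0767), which leaves 5 genes called. The other 5 genes called lower kept their call without that library, at log2 differences of -2.63 for Hbb-bs, -2.57 for Hba-a2, -2.43 for Hba-a1, -1.23 for Alas2 and -3.34 for Pf4.

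Together the 4 globin genes came to 231, 60.9, 237 and 57.5 TPM in ENT1KO replicates 11, 12, 14 and 15, against 694, 1960.4 and 756 TPM in WT replicates 1, 2 and 3. These sums are small fractions of a library, between 0.00575% and 0.0237% of all TPM in ENT1KO and between 0.0694% and 0.196% in WT. They also vary widely within a genotype. The highest ENT1KO library had 4.13 times the lowest, and the highest WT library 2.82 times the lowest. On the log2 of the sum, ENT1KO differed from WT by -3.10. The exact two-sided permutation p was 0.0286, the smallest that 4 against 3 libraries allow. After adjustment over 11 single values that permutation p was 0.210, so the sum did not pass. Hbb-bs varied more within groups than 97.8% of tested genes and Hbb-bt more than 98.7%, by the residual SD of the limma model.

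On the TPM scale, summed alpha and summed beta globin were near equal in every library. The ratio of summed alpha to summed beta globin TPM was 1.05, 1.14, 0.963 and 0.902 in ENT1KO replicates 11, 12, 14 and 15, against 0.987, 0.975 and 0.978 in WT replicates 1, 2 and 3, which lie within the ENT1KO range. The log2 ratio differed by 0.04 (exact two-sided permutation p = 0.714, 0.817 after adjustment over 11 single values), where the smallest p that 4 against 3 libraries allow is 0.0286. The ratio of Hbb-bt to Hbb-bs was 0.130, 0.0662, 0.132 and 0.0950 in ENT1KO and 0.0894, 0.103 and 0.0914 in WT, a log2 difference of 0.11 (exact permutation p = 0.83, adjusted 0.83). Such p-values do not show that the ratios are equal.

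The 2 deposited tables split the alpha globin pair in different ways. In TPM, Hba-a2 exceeded Hba-a1 by 17.3, 17.4, 8.69 and 11.6 times in ENT1KO replicates 11, 12, 14 and 15, against 12.4, 11.5 and 11.1 times in WT replicates 1, 2 and 3. In the authors' size-factor normalized counts, the ratio of Hba-a2 to Hba-a1 was 1.15, 1.20, 0.926 and 1.75 in ENT1KO, against 0.620, 0.954 and 0.831 in WT, so the copies were near equal there. The ENT1KO ratios rest on small normalized counts, 5.85 to 23.9 for Hba-a2 and 3.93 to 25.85 for Hba-a1. The ratio did not pass the test on either scale: the exact permutation p was 0.486 for TPM (adjusted 0.707) and 0.0857 for normalized counts (adjusted 0.236). The alpha globin sum differed between the tables as well, which a split between its copies alone would not change. It was close to the beta sum in TPM. In normalized counts it was only 0.0859, 0.125, 0.143 and 0.122 of the beta sum in ENT1KO and 0.0771, 0.113 and 0.115 of it in WT. The split of the beta pair differed less between the tables, with Hbb-bt at 0.185, 0.0864, 0.182 and 0.125 of Hbb-bs in the normalized counts of ENT1KO and 0.124, 0.147 and 0.130 in those of WT.

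**Figure D2:**
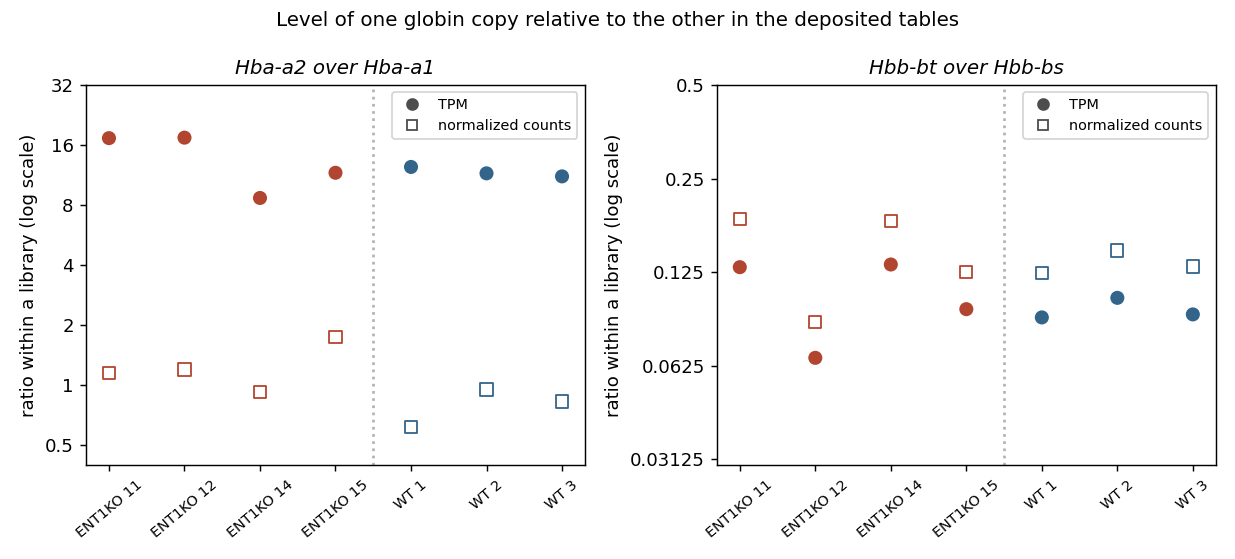
Ratio of Hba-a2 to Hba-a1 (left) and of Hbb-bt to Hbb-bs (right) within each library, on a log scale, from TPM (filled circles) and from the authors' normalized counts (open squares), with ENT1KO libraries left of WT libraries. The alpha globin ratio lies between 8.69 and 17.4 in TPM and between 0.620 and 1.75 in normalized counts, whereas the beta globin ratios of the tables lie near each other.

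The same gap shows when normalized counts are set against TPM over all 7 libraries. Per TPM and per kilobase of the longest coding transcript, Hba-a2 had 0.330 normalized counts and Hba-a1 had 3.39, where the median of 11941 tested genes with a known length was 12.5. Only 1.37% of these genes had a value as low as that of Hba-a2, and 5.04% one as low as that of Hba-a1. Hbb-bs had 4.95 and Hbb-bt 6.24, also in the lower tail, while Alas2 had 14.6 and Pf4 had 14.3, above the median, where 75.8% and 71.2% of these genes were at or below them. Itga2b also lay low, at 6.68, a value that 12.5% of these genes did not exceed. The part of reads shared between copies in these values was not tested. The size of the fall was alike in both tables. The authors' deposited table gives log2 fold changes, ENT1KO over WT, of -3.18 for Hbb-bs (adjusted p = 0.000164), -2.91 for Hbb-bt (0.000441), -3.16 for Hba-a1 (7.22e-05) and -2.85 for Hba-a2 (0.00037). There, 25.8% of the 18878 genes with an adjusted p in the authors' deposited table were lower at 0.05.

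Alas2 (GRCm39 chrX:149330371-149353634) encodes the red cell form of 5-aminolevulinate synthase, which starts haem synthesis in red cell precursors. It had 1.13, 0.34, 1.37 and 0.29 TPM in ENT1KO replicates 11, 12, 14 and 15, against 2.90, 5.50 and 3.15 TPM in WT replicates 1, 2 and 3. These low levels show the pattern of the globins, with replicates 11 and 14 above 12 and 15 and WT replicate 2 highest, and the groups did not overlap. The log2 difference was -1.46 ± 0.30 (SE, limma adjusted p = 0.00565). At such levels the added 1 TPM shrinks the value: with 0.1 TPM added it was -2.35, on log2(normalized count + 1) it was -2.74, and the authors' deposited table has -2.69 (adjusted p = 2.18e-06).

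The 250 bases before the RefSeq start are shown for 1 alpha globin, 1 beta globin, Alas2 and Pf4 (GRCm38.p6, 5′ to 3′ on the gene's strand). They were picked because the first 3 shared a high and a low pair of ENT1KO libraries and Pf4 did not. Itga2b, a platelet gene whose window is not printed, had the same pairs. Its levels were 1.13 and 0.98 TPM in ENT1KO replicates 11 and 14, against 0.52 and 0.54 TPM in 12 and 15. Capitals mark matches, on either strand, to the letters GATAA (core of the motif of GATA factors), CACCC (of Krüppel-like factors), CCAAT (of CCAAT-binding factors), ATATAA (of the TATA-binding protein) or GGAAGT (of ETS factors).
Hba-a2 (chr11:32296242-32296491, plus strand): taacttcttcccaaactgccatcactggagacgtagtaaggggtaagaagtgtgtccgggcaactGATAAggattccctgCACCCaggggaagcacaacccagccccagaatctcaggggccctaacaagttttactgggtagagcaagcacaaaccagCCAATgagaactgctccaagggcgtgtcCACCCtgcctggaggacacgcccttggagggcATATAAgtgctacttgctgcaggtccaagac
Hbb-bs (chr7:103827929-103828178, minus strand): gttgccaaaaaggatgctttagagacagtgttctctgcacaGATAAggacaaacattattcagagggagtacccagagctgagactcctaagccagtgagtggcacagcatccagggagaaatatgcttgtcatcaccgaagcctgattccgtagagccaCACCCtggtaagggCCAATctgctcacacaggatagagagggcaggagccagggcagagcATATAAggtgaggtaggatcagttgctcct
Alas2 (chrX:150547167-150547416, plus strand): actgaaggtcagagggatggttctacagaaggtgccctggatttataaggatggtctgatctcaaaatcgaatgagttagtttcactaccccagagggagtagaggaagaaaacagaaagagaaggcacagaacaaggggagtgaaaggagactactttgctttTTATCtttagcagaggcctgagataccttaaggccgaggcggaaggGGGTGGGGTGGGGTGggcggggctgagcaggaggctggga
Pf4 (chr5:90772185-90772434, plus strand): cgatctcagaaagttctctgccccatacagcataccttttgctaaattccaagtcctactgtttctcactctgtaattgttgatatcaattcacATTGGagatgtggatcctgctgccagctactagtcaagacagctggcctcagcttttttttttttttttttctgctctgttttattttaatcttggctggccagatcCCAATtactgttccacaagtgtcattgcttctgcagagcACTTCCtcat
The 250 bases of Hba-a1 are those of Hba-a2 shifted by 3 bases, with 250 of 250 the same. GATAA occurs in the windows of all 4 globins and of Alas2 (1 match each, at position -209 from the start in Hbb-bs, -185 in Hba-a2 and, on the minus strand, -86 in Alas2), and in none of Pf4, Ppbp and Itga2b. Among 32536 RefSeq promoter windows of that length, 22.5% hold GATAA on either strand. CACCC also occurs in the 4 globins and Alas2 and in none of the platelet genes, beside 52.1% of all windows. GGAAGT occurs once in each of Pf4, Ppbp and Itga2b and in none of the other 5, beside 19.8% of all windows. ATATAA occurs in the 4 globins and Ppbp (9.09% of all windows), and CCAAT in the 4 globins and Pf4 (33.8%). A match of letters is a description and says nothing on whether a factor was bound.

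Pf4 (GRCm39 chr5:90920294-90921242) encodes platelet factor 4, or CXCL4, a granule chemokine of platelets that macrophages can also express. It had 4.05, 4.96, 13.7 and 0.73 TPM in ENT1KO replicates 11, 12, 14 and 15, against 50.4, 93.5 and 54.1 TPM in WT replicates 1, 2 and 3. The groups did not overlap, and the order of the ENT1KO libraries was not that of the globins: replicate 14 was highest and replicate 15 lowest, with 12 slightly above 11. The mean was 5.87 ± 5.54 TPM in ENT1KO (SD, n = 4) and 66.0 ± 23.9 TPM in WT (SD, n = 3), a log2 difference of -3.62 ± 0.64 (SE, limma adjusted p = 0.00366). The highest ENT1KO library had 18.8 times the level of the lowest, and the highest WT library 1.85 times the lowest. The authors' deposited table has -3.83 for the log2 fold change of Pf4 (adjusted p = 0.000259).

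Ppbp (GRCm39 chr5:90916377-90917922), next to Pf4, encodes pro-platelet basic protein, the precursor of the granule chemokine CXCL7. It was listed at 0 in all 4 ENT1KO libraries, against 0.32, 1.04 and 0.63 TPM in WT replicates 1, 2 and 3, so no fold is given. Its WT normalized counts were 4.97, 22.6 and 11. Only 1 library, WT replicate 2, reached 1 TPM, so Ppbp was below the filter and was not tested. With a filter of any value above 0 in 1 library it was called lower, with a log2 difference of -0.71 (limma adjusted p = 0.012). The authors' deposited table gives a log2 fold change of -6.15 (adjusted p = 0.000225), a fitted value against a group at 0 that depends on the model.

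Itga2b (GRCm39 chr11:102344123-102360948) encodes integrin alpha IIb, the partner of integrin beta 3 in the platelet fibrinogen receptor. It had 1.13, 0.52, 0.98 and 0.54 TPM in ENT1KO replicates 11, 12, 14 and 15, against 1.01, 1.11 and 1.73 TPM in WT replicates 1, 2 and 3. The groups overlapped, since replicate 11 lay above WT replicates 1 and 2. Within ENT1KO, replicates 11 and 14 lay above 12 and 15, as for the globins and Alas2. The log2 difference was -0.35 ± 0.21 (SE, limma adjusted p = 0.186), and -0.59 in the authors' deposited table (adjusted p = 0.278). Its sign is not fixed, as quantile normalization gave 0.11 (limma adjusted p = 0.707). Itgb3, which encodes that partner, also overlapped, with 13.1, 13.6, 11.2 and 8.07 TPM in ENT1KO and 9.11, 6.73 and 9.73 TPM in WT (log2 difference 0.38, limma adjusted p = 0.149).

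Other genes of red cells were mostly at or near 0. Of 18 listed red cell genes 17 matched the table, 3 were at 0 in all 7 libraries (Rhag, Car1 and Trim58) and 11, these included, never exceeded 0.5 TPM. The membrane genes Slc4a1 (the band 3 anion exchanger) and Epb42 (protein 4.2) reached at most 0.04 and 0 TPM in ENT1KO and 0.07 and 0.04 TPM in WT. Rhd, a blood group membrane protein gene, was listed at 0 in the 4 ENT1KO libraries, against 0.22, 0.95 and 0.22 TPM in WT replicates 1, 2 and 3. Only 3 of the list could be tested, and 2 of them fell, beside 23.1% of all tested genes. Bpgm, which makes the haemoglobin ligand 2,3-bisphosphoglycerate, averaged 13.9 ± 2.69 TPM in ENT1KO and 48.0 ± 8.53 TPM in WT (SD, n = 4 and 3), a log2 difference of -1.72 (limma adjusted p = 0.00121). It had 11.47, 13.55, 17.7 and 12.77 TPM in ENT1KO replicates 11, 12, 14 and 15, an order that was not that of the globins. The water channel gene Aqp1, also expressed in endothelium, fell with a log2 difference of -2.98 (limma adjusted p = 0.00175), and its ENT1KO order, with replicate 14 highest at 1.97 TPM and replicate 15 at 0, was not that of the globins. The transferrin receptor gene Tfrc, widely expressed in dividing cells, averaged 57.8 ± 9.30 TPM in ENT1KO and 48.6 ± 13.6 TPM in WT (SD, n = 4 and 3; limma adjusted p = 0.284).

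Of 11 other globin genes, 7 were at 0 in all 7 libraries, among them the embryonic Hba-x, Hbb-bh1 and Hbb-y. Cygb, the cytoglobin gene of fibroblast-like cells, was the only one tested and fell, with 0 to 0.18 TPM in ENT1KO and 1.01 to 2.24 TPM in WT (log2 difference -1.25, limma adjusted p = 0.00255). Mb, the myoglobin gene, was listed at 0 in ENT1KO and at 0.07 to 0.25 TPM in WT.

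The receptors that define platelets were likewise at or near 0. Of 21 listed platelet genes, 2 were at 0 in all 7 libraries (Gp6 and Gp9) and 10, these included, never exceeded 0.5 TPM. Gp1ba and Gp5, which with Gp9 form the von Willebrand factor receptor complex, reached at most 0.03 and 0.03 TPM in ENT1KO and 0.13 and 0.06 TPM in WT. Gp1bb, the remaining subunit, was listed at 0 in ENT1KO and had 0.30, 0.62 and 0.60 TPM in WT, but its normalized counts were 0 in all 7 libraries, so the tables disagree on it. Of 8 that could be tested 5 fell, 1 rose and 2 did not pass, beside 23.1% lower and 27.5% higher of all tested genes. Their median log2 difference was -1.22, against 0.15 over all tested genes. The 5 that fell are known from other cell types too. Thbs1 (thrombospondin 1) averaged 17.8 ± 10.9 TPM in ENT1KO and 140 ± 51.2 TPM in WT (SD, n = 4 and 3; log2 difference -3.11, limma adjusted p = 0.00381). The tetraspanin gene Cd9 averaged 30.8 ± 13.2 TPM in ENT1KO and 173 ± 56.5 TPM in WT (SD, n = 4 and 3; log2 difference -2.48, limma adjusted p = 0.00142). P2ry12, an ADP receptor gene, had a log2 difference of -1.38, Gng11 of -3.15 and Vwf of -1.05. The thrombin receptor family gene F2rl2 rose, with a log2 difference of 1.05 (limma adjusted p = 0.0131). Gng11, Vwf and F2rl2 lie outside the naming rule and were picked with their values in view.

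**Figure D3:**
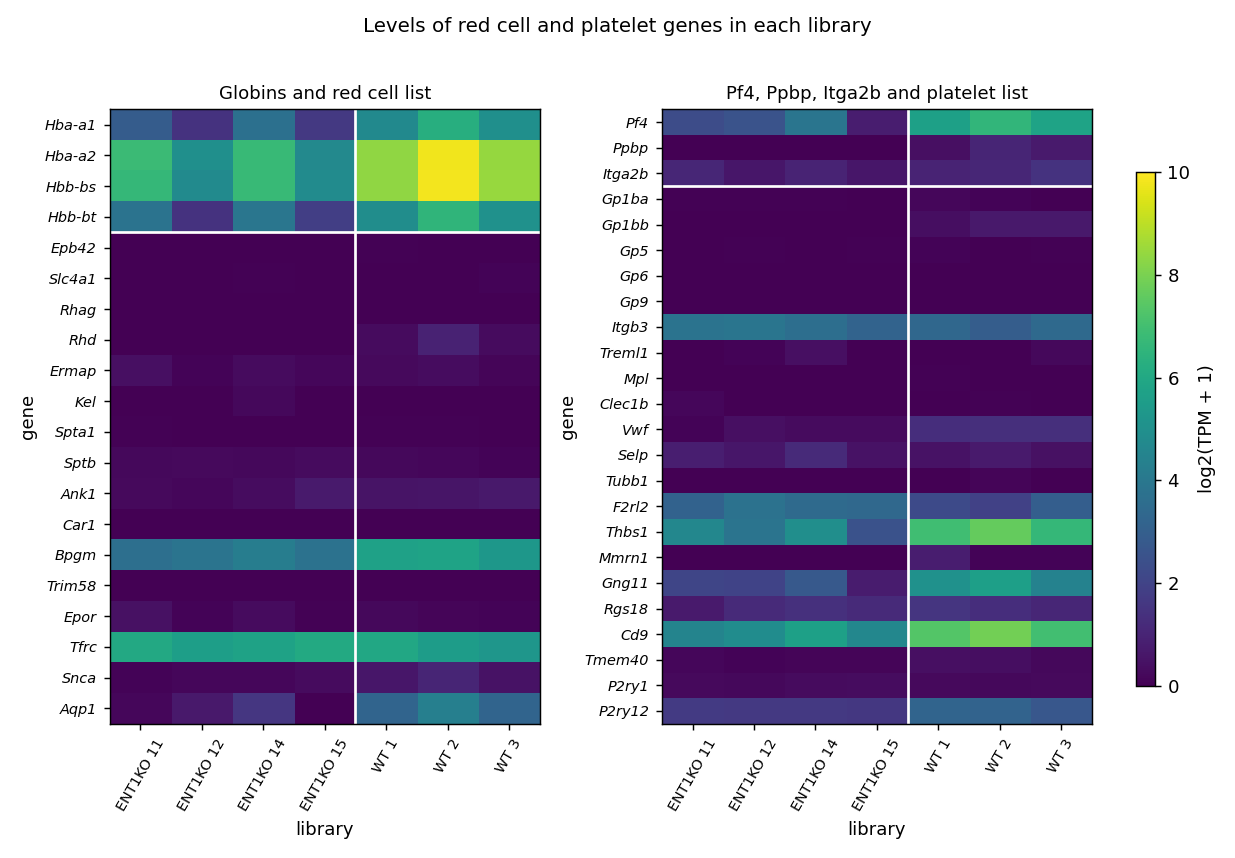
Level of each gene in each library as log2(TPM + 1), by colour from 0 (dark) to 10 (bright), with ENT1KO libraries left of the white line and WT libraries right of it. Hba-a2 and Hbb-bs are the brightest rows, most of the red cell list is dark (Rhag, Car1 and Trim58 at 0 throughout) apart from Tfrc, Bpgm and, in WT, Aqp1, and Gp6 and Gp9 are at 0 in the platelet list, where Itgb3, F2rl2, Thbs1 and Cd9 are bright beside Pf4.

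Of 10 other tested genes of haem synthesis, which encode enzymes and mitochondrial carriers, 1 rose, 2 fell and 7 did not pass. Of all tested genes, 27.5% rose and 23.1% fell. The median log2 difference of the 10 was 0.18, and their summed level averaged 198 ± 7.37 TPM in ENT1KO and 198 ± 16.5 TPM in WT (SD, n = 4 and 3). Ppox, protoporphyrinogen oxidase, rose to 25.6 ± 1.14 TPM in ENT1KO, against 16.3 ± 1.94 TPM in WT (limma adjusted p = 0.00329). Fech, ferrochelatase, which inserts the iron, fell to 15.9 ± 1.31 TPM in ENT1KO, against 29.0 ± 4.96 TPM in WT (limma adjusted p = 0.00276). Alas1, the form of the first enzyme used outside red cells, fell to 21.3 ± 3.39 TPM in ENT1KO, against 31.3 ± 3.65 TPM in WT (limma adjusted p = 0.0165). Urod, uroporphyrinogen decarboxylase, averaged 38.3 ± 4.01 TPM in ENT1KO and 31.1 ± 6.16 TPM in WT (limma adjusted p = 0.110).

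Genes that break down haem and store or export its iron mostly fell, 7 of 10 tested, beside 23.1% of all tested genes. None rose, beside 27.5% of all tested genes, and their median log2 difference was -1.09. Hmox1, haem oxygenase 1, averaged 8.47 ± 3.70 TPM in ENT1KO and 96.2 ± 19.1 TPM in WT (SD, n = 4 and 3; log2 difference -3.42, limma adjusted p = 0.00121). The ferritin genes Fth1 and Ftl1, among the most abundant of the list, averaged 1275 ± 109 and 641 ± 94.7 TPM in ENT1KO, against 2606 ± 379 and 1490 ± 287 TPM in WT. Macrophages are known for high levels of these genes. Within ENT1KO their orders were mixed. Hmox1 had 8.53, 6.50, 13.6 and 5.21 TPM in replicates 11, 12, 14 and 15, and Fth1 had 1138, 1240.3, 1337 and 1384 TPM. Of the genes that fell, Hmox1, Blvrb, Ftl1, Lrp1 and Slc40a1 were highest in replicate 14, and Fth1 and Slc48a1 in replicate 15. The macrophage markers given below were highest in 14 and lowest in 15. Cd163, also on the list, was below the filter and overlapped, with means of 0.445 TPM in ENT1KO and 0.45 TPM in WT. The part of macrophages in the levels of the listed genes was not tested.

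Transcription factors of red cell and megakaryocyte precursors were split. Of 10 listed, 6 were tested, of which 2 rose, 3 fell and 1 did not pass. Of all tested genes, 27.5% rose and 23.1% fell. Gata1, a master regulator of both lineages, reached at most 0.76 TPM in ENT1KO and 0.52 TPM in WT, and Klf1, which drives the adult beta globin gene, at most 0.05 TPM in ENT1KO and 0.04 TPM in WT. Fli1 averaged 73.2 ± 6.45 TPM in ENT1KO and 40.5 ± 12.3 TPM in WT (SD, n = 4 and 3; log2 difference 0.88, limma adjusted p = 0.00838), and T cells express it too. Zfpm1, the GATA cofactor FOG1, also rose, with a log2 difference of 0.93. Gata2, a factor of blood progenitors and mast cells, averaged 0.375 ± 0.346 TPM in ENT1KO and 6.57 ± 2.41 TPM in WT (log2 difference -2.44, limma adjusted p = 0.0013), and Lmo2, its partner in progenitors, had a log2 difference of -2.40.

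The CXC chemokine genes near Pf4 and Ppbp on chromosome 5 also fell where they could be tested, 3 of 3, beside 23.1% of all tested genes. Of the 5 listed, Cxcl5 and Cxcl15 were not tested. Cxcl5 overlapped between groups, with 0 to 0.49 TPM in ENT1KO and 0.35 to 1.12 TPM in WT. Cxcl15 reached at most 0.1 TPM in ENT1KO and was at 0 in WT. Cxcl1, a neutrophil attractant, had 3.32, 8.22, 22.9 and 0 TPM in ENT1KO replicates 11, 12, 14 and 15, against 111, 226 and 53.4 TPM in WT replicates 1, 2 and 3 (log2 difference -4.33, limma adjusted p = 0.0102). Its ENT1KO order, with 14 highest and 15 lowest, was that of Pf4. The related Cxcl2 and Cxcl3 had log2 differences of -2.97 and -2.19.

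Markers of other cell types of the tumour mostly fell too, beside 23.1% of all tested genes called lower. Fibroblast and tumour cell markers (18 of 19 tested, 18 lower) summed to 71.0, 188, 912 and 7.09 TPM in ENT1KO replicates 11, 12, 14 and 15, against 6506, 8289 and 4368 TPM in WT replicates 1, 2 and 3. Macrophage and monocyte markers (18 tested, 17 lower) summed to 570, 693, 1441 and 306 TPM in ENT1KO, against 3897, 5607 and 3767 TPM in WT. Endothelial markers (9 of 11 tested, 9 lower) summed to 4.37 to 14.4 TPM in ENT1KO and 35.3 to 66.1 TPM in WT, and neutrophil and mast cell markers (8 of 12 tested, 7 lower) to 11.8 to 21.9 TPM in ENT1KO and 112 to 143 TPM in WT. The fibroblast, macrophage and endothelial lists share with Pf4 their highest ENT1KO library, 14, and their lowest, 15. The globin sum was also highest in replicate 14 and lowest in 15, but its replicate 11 was nearly equal to 14 and its replicate 12 nearly as low as 15. In the lists, replicates 11 and 12 lay closer to each other. The part of these cell types in the levels of the 8 genes was not tested.

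**Figure D4:**
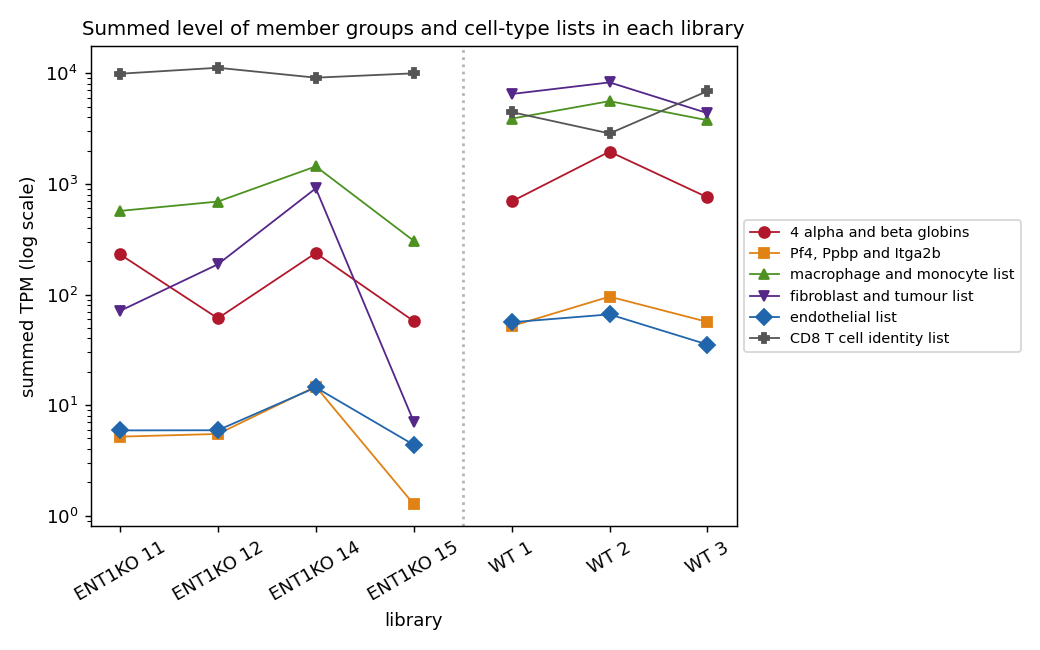
Summed TPM, on a log scale, of the 4 globins, of Pf4, Ppbp and Itga2b, and of cell type marker lists in each library, with ENT1KO libraries left of the dotted line and WT libraries right of it. Lines only join the points of 1 list. The globins lie at 57.5 to 237 TPM in ENT1KO and 694 to 1960.4 TPM in WT, and ENT1KO replicates 11 and 14 are nearly equal, whereas the macrophage, fibroblast and endothelial lists are highest in replicate 14 alone.

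Ratios within a library compare the size of these falls. The globins over the macrophage list gave 0.405, 0.0879, 0.165 and 0.188 in ENT1KO replicates 11, 12, 14 and 15, against 0.178, 0.35 and 0.201 in WT replicates 1, 2 and 3, with overlap (log2 difference -0.35, exact permutation p = 0.514, adjusted 0.707). The globins over the endothelial list gave 39.1, 10.3, 16.4 and 13.1 in ENT1KO, against 12.4, 29.7 and 21.4 in WT (log2 difference -0.21, exact permutation p = 0.743, adjusted 0.817). The globins over the fibroblast and tumour list gave 3.25, 0.325, 0.260 and 8.10 in ENT1KO, against 0.107, 0.236 and 0.173 in WT. The last ratio did not overlap and was higher in ENT1KO, and it did not pass the test (log2 difference 2.90, exact permutation p = 0.143, adjusted 0.393). With so few libraries and 11 values adjusted together, a failure to pass says little.

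For Pf4, Ppbp and Itga2b together, nearly all of it Pf4, the ratio to the macrophage list was 0.00909, 0.00791, 0.0102 and 0.00415 in ENT1KO, against 0.0133, 0.0171 and 0.0150 in WT. Every ENT1KO value lay below every WT value, and the test gave an exact permutation p of 0.0571 (adjusted 0.210, log2 difference -1.02). The ratio to the endothelial list overlapped (log2 difference -0.88, exact permutation p = 0.2, adjusted 0.44). The sum of the 3 platelet genes itself did not overlap and did not pass (log2 difference -3.77, exact permutation p = 0.0571, adjusted 0.210). The globins over the 3 platelet genes gave 44.6, 11.1, 16.1 and 45.2 in ENT1KO, against 13.4, 20.5 and 13.4 in WT (log2 difference 0.67, exact permutation p = 0.371, adjusted 0.681).

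The genes whose pattern over the 7 libraries was most like that of the members were taken by Pearson's r on log2(TPM + 1), members left out. Since the libraries form 2 genotypes that stand far apart, a high r is common and is given as a description. For the mean of the 4 globins the nearest were Acvrl1, an activin receptor-like kinase of endothelium (r = 0.993, n = 7), Gm15452 (0.992), Armcx6 (0.991), Cd320, the transcobalamin receptor (0.991), and Cd83 (0.988), and 1487 tested genes reached 0.9. Acvrl1 had 2.14, 0.79, 3.02 and 1 TPM in ENT1KO replicates 11, 12, 14 and 15, against 5.51, 8.58 and 5.64 TPM in WT replicates 1, 2 and 3, with the high pair and the low pair of the globins. For Pf4 they were Slc35f5 (r = 0.9996, n = 7), Tyrobp, an adaptor of myeloid receptors (0.999), Ch25h (0.999), the chemokine gene Ccl12 (0.998) and Sirpa, a myeloid receptor gene (0.998), and 2339 tested genes reached 0.9. Tyrobp had 42.0, 46.8, 75.3 and 21.1 TPM in ENT1KO, against 174, 243 and 164 TPM in WT. For Itga2b only 14 tested genes reached 0.9, led by Pja1 (r = 0.962, n = 7), Ccdc127 (0.958), Tmem185a (0.953), Ccs (0.947) and Acad12 (0.930).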

How the data were processed

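Libraries were poly(A)-selected, with 75 ng of RNA each, and were grouped by genotype from the sample titles. The authors deposited TPM for 55357 genes and, in a comparison of knockout and WT, normalized counts, a signal that the authors made by dividing gene counts by 1 size factor per library. That table also holds log2 fold changes, a test score and p-values deposited by the authors. Per the submitters' processing notes, which give no roles, the build was GRCm39 and the tools were STAR 2.7.1a, RSEM, DESeq, DESeq2 1.30.1 and Trimmomatic (0.35 and 0.38). The treatment of reads shared by gene copies is not stated in them. Each TPM column sums to 1000000 and keeps no depth. Depth was read from the normalized counts, whose values are whole multiples of 1 step per library (tolerance 0.01); for WT replicates 1 and 3 the step lies too near 1 to prove whole reads, so no count test was run.

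Genes that reached 1 TPM in 3 libraries or more were tested with limma-trend and robust empirical Bayes on log2(TPM + 1), with Benjamini-Hochberg adjustment over the 13798 tested genes (limma 3.58.1, R 4.3.3), and the procedure was tested on simulated data. For single values, such as ratios, an exact permutation test (two-sided, 35 splits) was used, with adjustment over 11 values. The members and lists were chosen with earlier results of these data known. The text names the 8 members, the 2 most abundant genes of a list, and called genes among its 2 smallest p. Other list genes are examples named with their values in view. Lists are described by counts, medians and summed levels. The sums of the fibroblast and tumour, macrophage and endothelial lists are the denominators of ratios tested by permutation. List sums in ENT1KO were also among the sets looked at with Dixon's test. A list gene left out of the text and plots still enters these counts. Gene positions are those deposited (GRCm39). Sequences come from GENCODE M21 transcripts and RefSeq promoter windows (GRCm38), matched by symbol for 8 of 8 genes. Motifs were searched on both strands, overlaps allowed. Alternatives were pseudocounts of 0.1 and 5, a filter of any value above 0 and one of 5 TPM, quantile normalization, normalized counts in place of TPM, array weights, and leaving out each library. Python 3.11.15 and matplotlib 3.10.9 drew the figures.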

Additional observations from a re-analysis of the deposited data

Results flagged for a closer look

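1 value stood apart by Dixon's test for a single far sample, among 30 sets of 4 ENT1KO values looked at, of which chance marks about 1 in 20. The summed level of the endothelial markers in ENT1KO libraries was 14.4 TPM in replicate 14 and 5.90, 5.92 and 4.37 TPM in replicates 11, 12 and 15, so the gap to the nearest library was 0.846 of the whole range, above the critical value for 4 samples. None of the 7 members with a value above 0 in ENT1KO was marked in this way; the nearest was Pf4, at 0.674. Replicate 14 was also the highest ENT1KO library for Pf4 at 13.7 TPM. Without it the log2 difference of Pf4 was -4.11 and that of Hbb-bs -3.44, both still past the threshold.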

How the results depend on the processing

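No paired analysis was possible because the genotypes share no replicate numbers. Leaving out 1 library at a time gave 4840 to 6853 genes called, 2315 to 3748 of them higher and 2525 to 3145 lower in ENT1KO, and 5 to 6 of the 8 members called. The lowest of these came without WT replicate 2, when 2315 genes were called higher, against 3800 with all libraries, and Hbb-bt lost its call (-2.21, limma adjusted p = 0.0767). Under the other alternatives run, Hbb-bs, Hba-a1, Hba-a2, Hbb-bt, Alas2 and Pf4 kept their direction and call wherever they were tested; Alas2 fell below the 5 TPM filter, as did Itga2b. The size of a difference depends on the scale for low genes: Alas2 ranged from -2.74 on normalized counts to -0.61 with 5 TPM added, Pf4 from -4.38 to -2.79 on the same settings, and Hba-a1 was -2.19 and Hbb-bt -2.10 with 5 TPM added. Itga2b ranged from -0.66 to 0.11 and was never called. The median difference of all tested genes was 0.15 on TPM, 0 on normalized counts and 0.011 on TPM with a filter of any value above 0. The split of calls turned with it, to 2894 higher and 3859 lower on normalized counts and 3116 higher and 3847 lower with that filter, against 3800 and 3182 on TPM as tested. With that filter 7 members were called, Ppbp being the seventh, and with 5 TPM 5 were called. The edgeR test on whole reads was not run. Levels of a few TPM or less, as for Alas2, Ppbp and Itga2b, rest on few reads. The alpha globins had small normalized counts in ENT1KO too, despite the higher TPM of Hba-a2. Per TPM and kilobase Hba-a2 had 0.330 normalized counts, against a median of 12.5. The number of reads behind its TPM is therefore not known from these counts. In replicates 11, 12, 14 and 15, normalized counts were 15.3, 5.85, 23.9 and 6.88 for Hba-a2 and 13.2, 4.88, 25.85 and 3.93 for Hba-a1. Pf4 had 3.93 in replicate 15. No interval for counting error is given.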
